A study of Mus musculus with 18 samples.

Results

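The integrin genes of T cells measured here were 6 α chains (*Itga1*, *Itga4*, *Itga6*, *Itgae*, *Itgal* and *Itgav*) and 4 β chains (*Itgb1*, *Itgb2*, *Itgb3* and *Itgb7*). They were selected by gene symbol, and each symbol matched 1 Ensembl identifier among the 45706 genes of the deposited tables. All 10 passed the filter on low counts, which left 12255 genes in the test. RNA-seq was available for 18 libraries of CD8+ T cells purified from the spleens of OT-I mice, whose transgenic receptor recognises an ovalbumin (OVA) peptide, on a C57BL/6 background with the CD45.1 allele. Cultures received IL-15, IL-7 and 10 ng/ml OVA peptide. Repeat peptide stimulated cells were given the peptide daily for 5 days and kept with it until day 8, whereas single peptide stimulated cells were given it once and washed. From day 5 to day 8 both were treated with 1 µM ibrutinib, a covalent inhibitor of BTK that also binds other kinases, or with its solvent DMSO. The groups were repeat peptide with DMSO (r_DMSO, n = 4), repeat peptide with ibrutinib (r_BTK_inh, n = 5), single peptide with DMSO (s_DMSO, n = 5) and single peptide with ibrutinib (s_BTK_inh, n = 4).

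All libraries carried the strain entry WT, and the age of the mice is not given in the sources used here. Some genotype entries hold the words btk KO. The study names no deletion for its sequenced cells, although it also cultured btk-deficient cells. The entries were therefore read as names of 6 experiments, here A to F. Whether any library came from btk-deficient cells could not be checked. Experiments A to D held 1 library of every group, experiment E only an r_BTK_inh library and experiment F only an s_DMSO library. Whether each experiment used a separate animal is not stated for these libraries, and p-values therefore measure the spread between experiments. The main fit treats libraries of 1 experiment as independent. Where the experiment entered as a block, p-values measure the spread left after differences between experiments were removed. The system is a culture of T cells of 1 receptor, so the integrins were measured without the tissues to which they bind.

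Integrins are adhesion receptors made of an α and a β chain, and the pairing sets the ligand. Itgal pairs with Itgb2 to form LFA-1, which binds ICAM proteins on other cells. Itgb7 pairs with Itgae (CD103) to bind E-cadherin on epithelium, or with Itga4 to bind MAdCAM-1 of gut vessels. Itgb1 pairs with Itga4 (VLA-4, which binds VCAM-1 and fibronectin), Itga1 (VLA-1, which binds collagen) and Itga6 (which binds laminin). Itgav and Itgb3 together form a receptor for vitronectin and osteopontin, and Itgav also pairs with Itgb1. T cells switch these receptors between inactive and active forms through talin, kindlin and the GTPase Rap1, so RNA levels of the chains do not give adhesion.

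The depth was 23445922 to 51995372 expected counts per library, with a median of 27420966. All 5 T cell markers (*Cd3e*, *Cd3g*, *Cd8a*, *Cd8b1* and *Cd5*) had a median of at least 1 TPM (a level scaled to transcript length and to the total of the library) in each group, and their summed TPM was 1831 to 2774. *Cd4* was at 0 to 0.17 TPM. Markers of other cells were low: the summed TPM per library was at most 8.87 over 5 myeloid markers, 7.10 over 5 B cell markers, 5.53 over 4 megakaryocyte and platelet markers and 2.35 over 4 dendritic cell markers. The r_BTK_inh library of experiment E had 6.12 TPM over 3 neutrophil markers, against at most 0.06 in the other libraries. The fold changes of the 10 integrins that rest on its group were also computed without it. Results for genes of other lists, shares and ratios are given only with it included. The myeloid sum had a median of 5.36 TPM in r_DMSO, 6.04 in r_BTK_inh, 1.44 in s_DMSO and 1.15 in s_BTK_inh, where *Cd68* was at 2.58 to 4.18 TPM in r_DMSO against 0.67 to 2.95 in s_DMSO and *Cd14* at 1.10 to 2.92 against 0 to 0.04, while *Csf1r* and *Adgre1* stayed at or below 0.09 TPM in all libraries. The 3 markers of CD4 T cells summed to 15.4 to 20.8 TPM in r_DMSO and 1.87 to 11.1 TPM in s_DMSO. Of these, *Zbtb7b* had 15.3 to 20.7 TPM in r_DMSO and 1.00 to 5.60 in s_DMSO, and *Foxp3* at most 0.08 in r_DMSO, 5.55 in s_DMSO and 8.49 in s_BTK_inh. Finally, 2 NK cell markers summed to 2.64 to 25.6 TPM in repeat and 0.59 to 2.73 TPM in single peptide libraries. *Klrb1c* had 2.64 to 11.3 TPM in r_DMSO, 2.69 to 25.2 in r_BTK_inh, 0.51 to 1.94 in s_DMSO and 0.82 to 2.63 in s_BTK_inh. *Ncr1* went the other way, with a median of 0 TPM in both repeat peptide groups, 0.11 in s_DMSO and 0.125 in s_BTK_inh. The part of these lists in the results below was not tested. In bulk RNA, fewer cells of a type and less RNA per cell cannot be told apart.

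Promoters of 5 of the 10 genes (*Itga1*, *Itga4*, *Itgav*, *Itgb1* and *Itgb7*) were present in the RefSeq table of promoters, each with 250 bases before and 50 bases after the start of the gene, on build GRCm38.p6. Those of *Itgb7*, which was lower in repeat peptide stimulated cells, and of *Itgav* and *Itgb1*, which were higher, are shown 5′ to 3′ because, of the 5, these were the genes called between repeat and single peptide with DMSO. Capitals mark CpG dinucleotides.

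Itgb7, chr15:102231886-102232185, minus strand: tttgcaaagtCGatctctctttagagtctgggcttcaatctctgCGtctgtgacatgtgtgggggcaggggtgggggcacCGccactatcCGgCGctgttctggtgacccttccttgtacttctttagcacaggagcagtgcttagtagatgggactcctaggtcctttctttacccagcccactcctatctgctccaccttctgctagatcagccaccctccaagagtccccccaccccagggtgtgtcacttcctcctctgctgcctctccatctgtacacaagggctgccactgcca
Itgav, chr2:83724147-83724446, plus strand: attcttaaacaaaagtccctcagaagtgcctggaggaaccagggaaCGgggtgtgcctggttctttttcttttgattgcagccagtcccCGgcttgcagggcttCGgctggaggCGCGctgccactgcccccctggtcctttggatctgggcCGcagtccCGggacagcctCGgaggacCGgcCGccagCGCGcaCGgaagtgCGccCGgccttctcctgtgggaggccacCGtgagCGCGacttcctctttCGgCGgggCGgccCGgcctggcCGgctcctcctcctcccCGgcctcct
Itgb1, chr8:128685404-128685703, plus strand: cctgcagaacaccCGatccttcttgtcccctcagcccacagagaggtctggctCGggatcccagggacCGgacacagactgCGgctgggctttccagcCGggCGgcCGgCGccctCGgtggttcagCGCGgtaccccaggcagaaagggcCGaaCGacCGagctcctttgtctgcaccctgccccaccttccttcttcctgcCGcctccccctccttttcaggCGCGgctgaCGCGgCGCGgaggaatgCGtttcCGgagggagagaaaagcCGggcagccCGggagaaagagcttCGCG

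The *Itgb7* promoter held 5 CpG and 56.3% G or C. The *Itgav* promoter held 24 CpG and 67.3% G or C, and the *Itgb1* promoter 27 CpG and 67.3%. Over the 32851 promoters of the table the median was 7 CpG and 52.7%, so *Itgb7* was below the median for CpG and the other two well above it. The letters GGGCGG, bound by SP factors and searched on both strands, were found once each in *Itgav* and *Itgb1* and not in *Itgb7*, and 35.7% of all promoters held them. The letters CACCC, bound by KLF factors, occurred 4 times in *Itgb7*, once in *Itgav* and 2 times in *Itgb1*, and 57.5% of all promoters held them. The letters GGAA (ETS factors) occurred 2 times in *Itgb7*, 4 times in *Itgav* and 5 times in *Itgb1*, but 96% of all promoters held them. The E-box CANNTG occurred 2 times in *Itgb7* and not in the other two (72.3% of all promoters), and CAGACA (SMAD factors) once in *Itgb1* and not in the other two (21% of all). None of the 3 promoters held TGANTCA (AP-1, 7.81% of all), TGTGGT (RUNX factors, 16.8%) or CTTTGA (TCF factors, 16%). A match is a description of these windows and not a binding site.

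Levels of different genes were compared per length, in TPM, where *Itgal* was the most abundant α chain in every library. In s_DMSO cells the median level was 499 TPM for *Itgb7*, 188 TPM for *Itgb2*, 123 TPM for *Itgal* and 84.9 TPM for *Itgb1*. *Itgae* had 50.4 TPM, *Itgb3* 44.3 TPM and *Itga6* 35.2 TPM, while *Itga4* had 13.9 TPM and *Itgav* 9.24 to 17.8 TPM. *Itga1* was near the limit of detection, at 0 to 0.09 TPM. In r_DMSO cells the order was different: *Itgb2* had a median of 244 TPM and *Itgal* 189 TPM, ahead of *Itgb1* at 164 TPM and *Itgb7* at 163 TPM, and *Itgae* had only 0.63 TPM. The levels of *Itgb1* and *Itgb7* overlapped in r_DMSO, whereas in every s_DMSO library *Itgb7* was above *Itgb1*.

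**Figure D1:**
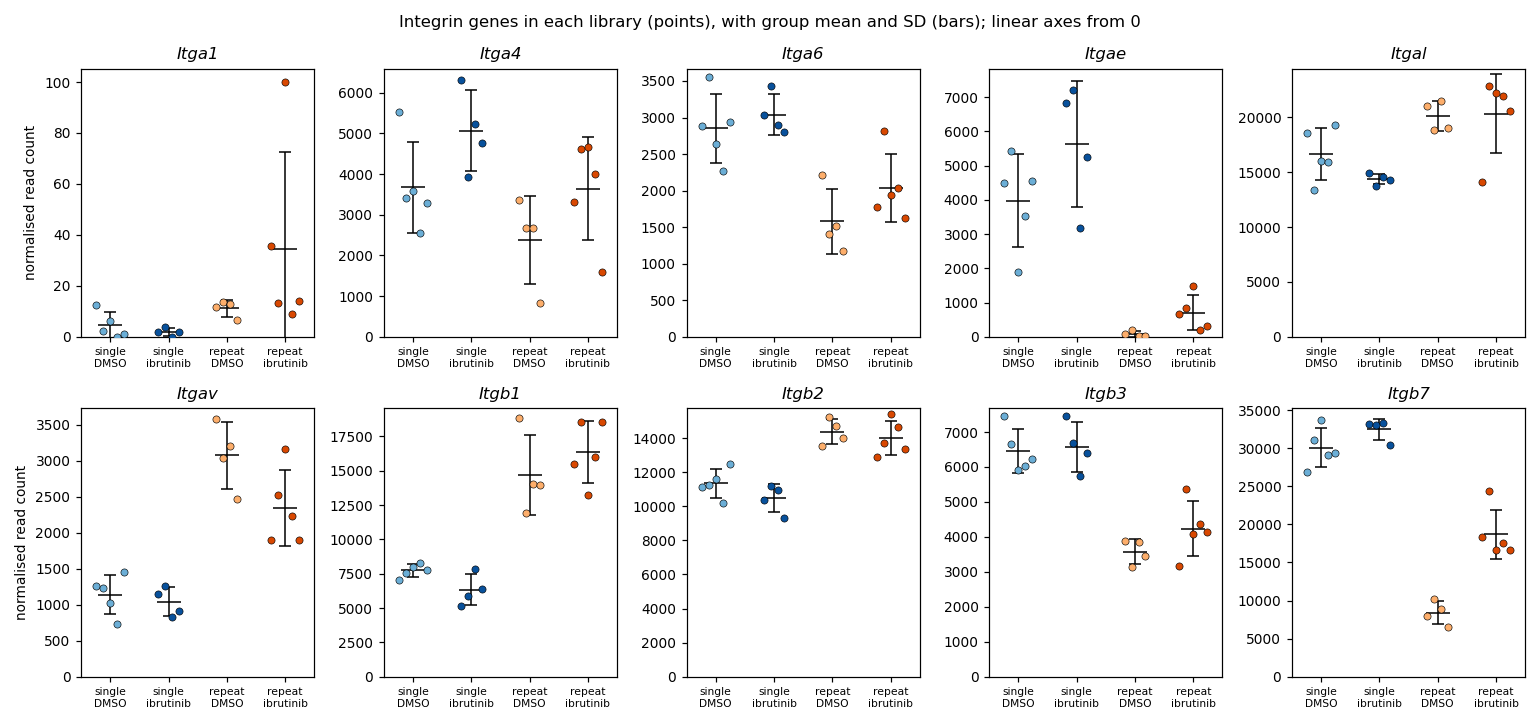
Normalised read count (TMM-scaled, linear axes from 0) of each integrin gene in every library, as points side by side within a group, with the group mean and SD as bars; SD bars that would go below 0 are cut there. *Itgae* and *Itgb7* were lowest in repeat peptide cells with DMSO, and *Itgav* and *Itgb1* were higher in all repeat than in all single peptide libraries.

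The first question was how daily peptide changed the integrins in the absence of drug. With DMSO, 7 of the 10 genes differed between repeat and single peptide stimulated cells: *Itgav*, *Itgb1* and *Itgb2* were higher, and *Itgae*, *Itgb7*, *Itga6* and *Itgb3* were lower. A gene was called where edgeR's quasi-likelihood test gave an adjusted p under 0.05 over all tested genes, its mean normalised read count reached 50 and its log2 fold change exceeded 0.2 in size. These 7 of 10 stand beside 47.0% of all tested genes called in this comparison, 22.8% higher and 24.2% lower. The median log2 fold change was -0.17 over the integrins and -0.002 over all tested genes.

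*Itgae* (ENSMUSG00000005947, chr11:73090583-73147446 on GRCm38), the gene of the α chain CD103, showed the largest difference of the integrins. Its normalised read counts in r_DMSO experiments A to D were 74.4, 205, 15.0 and 25.6. In s_DMSO experiments A to D and F they were 4491, 5434, 1879, 3531 and 4547. The groups did not overlap, and experiments C and D were the lowest in both. The log2 fold change of repeat against single peptide was -5.65 (SE 0.727, edgeR adjusted p = 5.45e-06), that is 50.1-fold lower, and the count was lower in 4 of 4 shared experiments. Because the r_DMSO library of experiment B held the highest of these low counts, the log2 fold change was -6.76 without it. *Haspin* lies on the opposite strand within the *Itgae* span, but shares no exon base with it.

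*Itgb7* (ENSMUSG00000001281, chr15:102215995-102231944), the partner of Itgae, followed the same order of groups with a smaller difference. Its normalised read counts were 7966, 10162, 8828 and 6564 in r_DMSO experiments A to D, and 26864, 31088, 33719, 29083 and 29410 in s_DMSO experiments A to D and F. No r_DMSO library reached the lowest s_DMSO library. The log2 fold change was -1.84 (SE 0.139, adjusted p = 7.77e-09), or 3.58-fold lower.

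The laminin receptor chain *Itga6* and the αv partner *Itgb3* were lower with repeat peptide as well. *Itga6* (ENSMUSG00000027111, chr2:71745616-71858416) had 2217, 1408, 1518 and 1175 normalised reads in r_DMSO and 2881, 3549, 2632, 2269 and 2934 in s_DMSO. Its highest r_DMSO library, of experiment A, was just below the lowest s_DMSO library, and the log2 fold change was -0.85 (SE 0.178, adjusted p = 0.00058). *Itgb3* (ENSMUSG00000020689, chr11:104608000-104670476) had 3895, 3129, 3844 and 3443 in r_DMSO and 7458, 6667, 5909, 6030 and 6230 in s_DMSO, with groups apart and a log2 fold change of -0.85 (SE 0.127, adjusted p = 2.14e-05). The *Itga6* call was not made by limma on log2(TPM + 1), where its adjusted p was 0.0519.

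The chains that were higher with repeat peptide were *Itgav*, *Itgb1* and *Itgb2*. *Itgav* (ENSMUSG00000027087, chr2:83724397-83806916) had 3585, 3038, 3210 and 2469 normalised reads in r_DMSO and 1259, 1226, 1030, 736 and 1452 in s_DMSO, which is 2.7-fold higher (log2 fold change 1.43, SE 0.188, adjusted p = 5.89e-06). *Itgb1* (ENSMUSG00000025809, chr8:128685654-128733200), the β chain of the VLA integrins, had 18846, 11912, 14040 and 13970 in r_DMSO and 7063, 7566, 7997, 8265 and 7801 in s_DMSO. It was 1.90-fold higher (log2 fold change 0.92, SE 0.138, adjusted p = 2.18e-05), and every repeat library was above every single library. *Itgb2* (ENSMUSG00000000290, chr10:77530252-77565708), the β chain of LFA-1, rose least, from 11340 ± 841 (SD, n = 5) to 14387 ± 743 (SD, n = 4) normalised reads, with a log2 fold change of 0.34 (SE 0.0876, adjusted p = 0.00293) and groups that did not overlap.

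The other 3 genes did not pass the test in this comparison. *Itgal* (ENSMUSG00000030830, chr7:127296260-127335138), the α chain of LFA-1, had 20097 ± 1351 normalised reads in r_DMSO (SD, n = 4) and 16634 ± 2360 in s_DMSO (SD, n = 5), with a log2 fold change of 0.27 (SE 0.131, adjusted p = 0.087). *Itga4* (ENSMUSG00000027009, chr2:79255426-79333123), shared by the α4β1 and α4β7 receptors, had a log2 fold change of -0.62 (95% interval -1.32 to 0.08, adjusted p = 0.124) and was lower in 4 of 4 shared experiments. With the experiment as a replicate block both were called, *Itgal* at 0.34 (adjusted p = 0.00162) and *Itga4* at -0.74 (adjusted p = 0.0299). In that fit 6564 of all tested genes were called, against 5765 without the block. *Itga4* shares 1124 exon bases with *Cerkl* on the opposite strand, which had 3.34 to 24.1 TPM, and whether strand was used in the counting is not given in the sources used here. *Itga1* (ENSMUSG00000042284, chr13:114953096-115101964) had 6 to 17 expected counts in r_DMSO and 0 to 11 in s_DMSO, too few for a comparison.

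**Figure D2:**
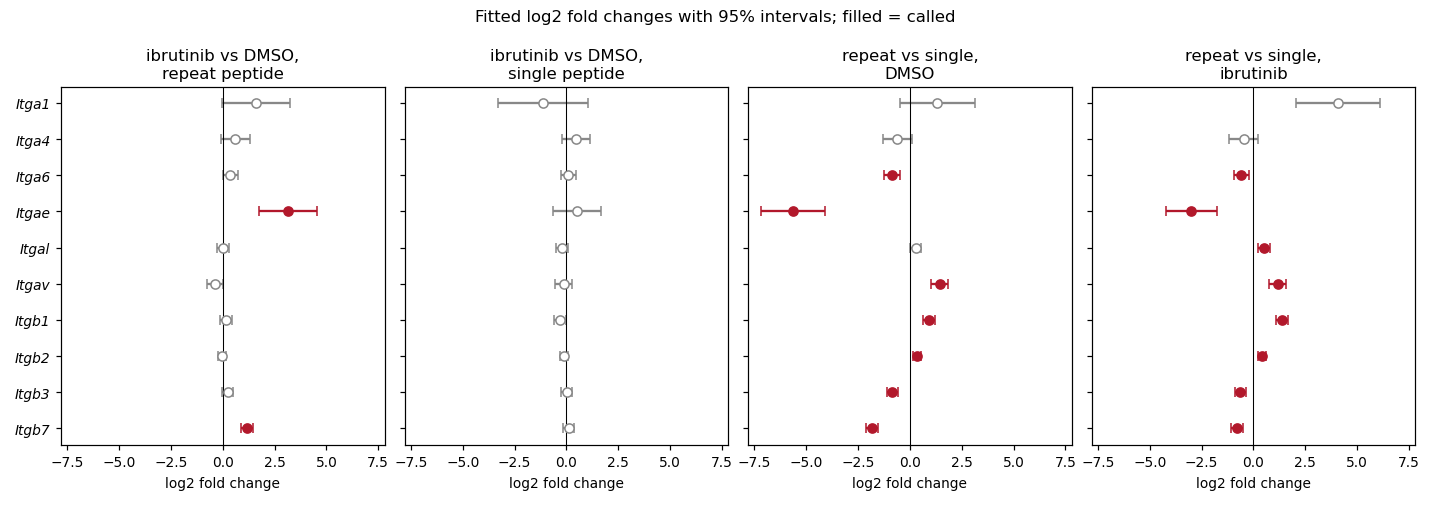
Fitted log2 fold change (x axis) of each integrin gene in 4 comparisons, with 95% intervals from the edgeR fit; filled points are called and open points are not. Ibrutinib moved *Itgae* and *Itgb7* in repeat peptide cells (3.14 and 1.16) and no integrin gene was called in single peptide cells; the wide *Itga1* interval rests on few counts.

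The second question was what ibrutinib did to the integrins of repeat peptide stimulated cells. Of the 10 genes, 2 were called and both were higher, *Itgae* and *Itgb7*, which together encode CD103 with its β7 chain. In all tested genes 5.92% were called, 4.01% higher and 1.92% lower. The median log2 fold change was 0.30 over the integrins and 0.004 over all tested genes.

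*Itgae* had 855, 1497, 194, 316 and 657 normalised reads in the r_BTK_inh libraries of experiments A to E, against 74.4, 205, 15.0 and 25.6 in r_DMSO. The groups overlapped, since r_DMSO experiment B (205) lay above r_BTK_inh experiment C (194), but within each of the 4 shared experiments the ibrutinib library was higher. The log2 CPM differences were 3.49, 2.85, 3.53 and 3.52 in experiments A to D. The fitted log2 fold change was 3.14 (SE 0.661, edgeR adjusted p = 0.00759), or 8.84-fold. It was 4.27 without the r_DMSO library of experiment B and 3.17 without the r_BTK_inh library of experiment E. All r_BTK_inh libraries stayed below the lowest s_DMSO library (1879).

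*Itgb7* had 24356, 16672, 17496, 16696 and 18336 normalised reads in r_BTK_inh experiments A to E, and all were above the highest r_DMSO library (10162). The log2 fold change was 1.16 (SE 0.135, adjusted p = 5.61e-05), or 2.23-fold, and 1.17 without experiment E. The differences within experiments A to D were 1.61, 0.71, 0.99 and 1.35 on the log2 CPM scale. These libraries were also all below the lowest s_DMSO library (26864). On the log2 CPM scale, the r_BTK_inh mean lay 62.6% of the way from the r_DMSO mean to the s_DMSO mean for *Itgb7*, and 55.3% for *Itgae*. Mean normalised reads in r_DMSO, r_BTK_inh and s_DMSO were 8380, 18711 and 30033 for *Itgb7*, and 80.1, 704 and 3976 for *Itgae*. In reads both stayed nearer to r_DMSO than to s_DMSO. For genes not called, the log2 position was 92% for *Itga4*, 43.1% for *Itga6*, 27.8% for *Itgav*, 26.8% for *Itgb3* and 11.3% for *Itgb2*. It was 0.782% for *Itgal*, and below 0 for *Itgb1* (-18.1%) and *Itga1* (-73.6%).

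**Figure D3:**
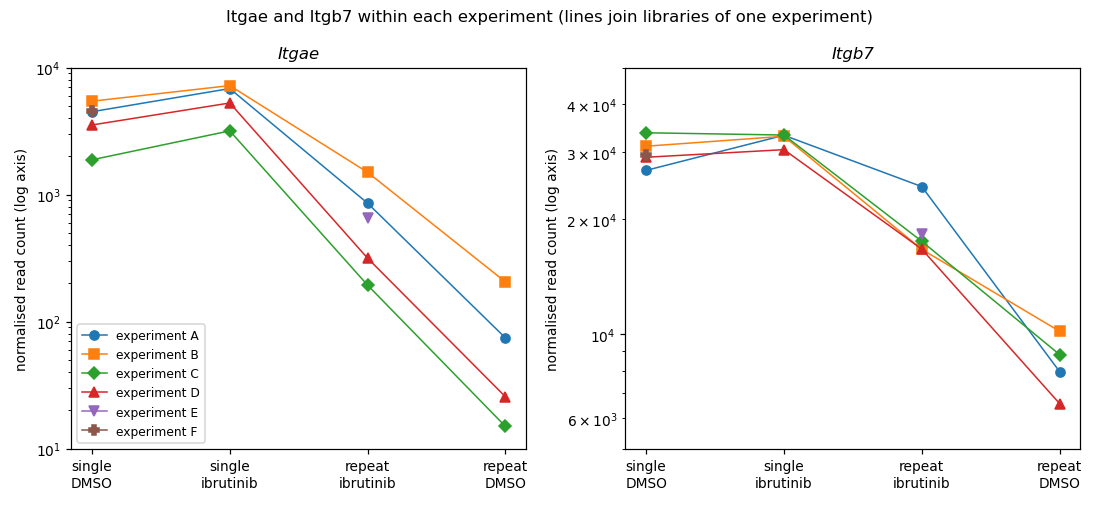
Normalised read count on a log axis of *Itgae* and *Itgb7* in the 4 groups, with a line joining the libraries of each experiment; experiments E and F have 1 library each. In each of experiments A to D the repeat peptide library with ibrutinib lies above the one with DMSO and below both single peptide libraries.

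For the other 8 genes the difference between ibrutinib and DMSO in repeat peptide stimulated cells did not pass the test. *Itga6* had 2811, 1940, 2031, 1620 and 1770 normalised reads with ibrutinib in experiments A to E, higher than DMSO in 4 of 4 shared experiments, with a log2 fold change of 0.36 (SE 0.176, adjusted p = 0.237). *Itgb3* had 5384, 4091, 4374, 4154 and 3168 with ibrutinib, also higher in 4 of 4, with 0.24 (SE 0.125, adjusted p = 0.267). *Itgav* had 2524, 3168, 2237, 1900 and 1904, lower than DMSO in experiments A, C and D and not in B, with -0.39 (SE 0.187, adjusted p = 0.232). With the experiment as a block these 3 genes were called as well, so that 5 integrins were called: *Itga6* at 0.42 (adjusted p = 0.0417), *Itgb3* at 0.32 (adjusted p = 0.0133) and *Itgav* at -0.34 (adjusted p = 0.0385). In that fit 1694 of all tested genes were called, against 726 without the block.

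*Itga4* was higher with ibrutinib in 4 of 4 shared experiments (log2 CPM differences 0.46, 0.80, 0.58 and 0.96), but the spread between experiments was wide, and the log2 fold change of 0.61 had a 95% interval of -0.09 to 1.31 (adjusted p = 0.299). The LFA-1 chains differed least. *Itgal* had a log2 fold change of 0.02 (95% interval -0.26 to 0.29) and *Itgb2* of -0.04 (95% interval -0.22 to 0.15). *Itgal* was higher in 4 of 4 shared experiments (log2 CPM differences 0.12, 0.24, 0.03 and 0.11), and *Itgb2* in 2 of 4. With the experiment as a block *Itgal* had 0.13 (edgeR adjusted p = 0.312). For *Itgal* the library of experiment E was the lowest of its group, and without it the log2 fold change was 0.12 (adjusted p = 0.572). *Itgb1* had 0.16 (95% interval -0.13 to 0.45). *Itga1* had 8 to 88 expected counts with ibrutinib, and its highest library, of experiment B, had 100.1 normalised reads against 35.7 or less in the others.

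In single peptide stimulated cells ibrutinib gave no call among the 10 integrins in edgeR's quasi-likelihood test. None had an unadjusted p under 0.05, and 0 were called by DESeq2, by limma on log2(TPM + 1) or when the experiment entered as a block. In all tested genes 3.04% were called, 0.351% higher and 2.69% lower. The intervals bound the differences: *Itgb7* had a log2 fold change of 0.11 (95% interval -0.16 to 0.39), *Itgb2* -0.12 (95% interval -0.30 to 0.07) and *Itgb1* -0.29 (95% interval -0.58 to 0.00). *Itgae* had 6835, 7213, 3175 and 5263 normalised reads in s_BTK_inh experiments A to D, higher than s_DMSO in 4 of 4 experiments, but its interval was wide (0.50, -0.66 to 1.66). *Itga4* was higher in 4 of 4 as well, with 0.46 (95% interval -0.22 to 1.15), whereas *Itgb1* and *Itgb2* were lower in 4 of 4. *Itgb3* had 0.02 (95% interval -0.24 to 0.28).

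Whether the ibrutinib effect itself differed between repeat and single peptide was tested in the same fit. *Itgb7* was the 1 integrin called, with a difference of 1.05 on the log2 scale (SE 0.188, adjusted p = 0.00626). In all tested genes 1.26% were called, 1.04% higher and 0.212% lower. For *Itgae* the estimate was larger, 2.65, but so was its error (SE 0.849, adjusted p = 0.163). It was called with the experiment as a block (2.54, adjusted p = 0.0159), which gave 2 integrins, and without the r_DMSO library of experiment B (3.78, adjusted p = 0.0234). With the block 679 of all tested genes were called for this difference, against 154 without it. *Itgb1* had 0.45 (SE 0.196, adjusted p = 0.382). By limma on log2(TPM + 1) *Itgb7* had 1.01 (adjusted p = 0.0785), and no integrin was called.

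With ibrutinib in both arms, repeat and single peptide stimulated cells still differed in 8 integrins, 4 higher (*Itgb1*, *Itgav*, *Itgal* and *Itgb2*) and 4 lower (*Itgae*, *Itgb7*, *Itgb3* and *Itga6*). The share in all tested genes was 38.4%, with 18.7% higher and 19.6% lower. This comparison and the one with DMSO share no library, but each shares its libraries with the ibrutinib comparisons above. *Itgae* had a log2 fold change of -3.00 (SE 0.581, adjusted p = 0.000473), or 8.02-fold lower, beside -5.65 with DMSO. *Itgb7* had 33211, 33016, 33260 and 30448 normalised reads in s_BTK_inh, above all r_BTK_inh libraries, and a log2 fold change of -0.80 (SE 0.131, adjusted p = 9.32e-05), beside -1.84 with DMSO.

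*Itgb1* had 18514, 13231, 16000, 18577 and 15493 normalised reads in r_BTK_inh experiments A to E and 5176, 5904, 7852 and 6392 in s_BTK_inh experiments A to D. It was 2.58-fold higher (log2 fold change 1.37, SE 0.143, adjusted p = 6.98e-07). *Itgav* had 1156, 1265, 835 and 912 in s_BTK_inh and was 2.25-fold higher with repeat peptide (1.17, SE 0.193, adjusted p = 9.64e-05). *Itgal* was called here, at 0.50 (SE 0.133, adjusted p = 0.0053), and at 0.61 without experiment E, although the groups overlapped through that library (14110, against 13766 to 14954 in s_BTK_inh). *Itgb2* had 0.42 (SE 0.0885, adjusted p = 0.0009), *Itgb3* -0.63 (SE 0.124, adjusted p = 0.00048) and *Itga6* -0.58 (SE 0.174, adjusted p = 0.0118). By limma on log2(TPM + 1), *Itga6* (adjusted p = 0.209) and *Itgb3* (adjusted p = 0.142) were not called. *Itga4* did not pass the test (-0.48, adjusted p = 0.251). *Itga1* was under the minimum mean count, with 8 to 88 expected counts in r_BTK_inh and 0 to 4 in s_BTK_inh.

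Expressed as a share of the TPM summed over the 4 β chains, *Itgb7* made up 21.6 to 30.2% in r_DMSO, 39.0 to 47.3% in r_BTK_inh, 59.6 to 64.2% in s_DMSO and 65.5 to 67.2% in s_BTK_inh libraries. These ranges did not overlap. *Itgb1* took 23.2 to 36.2% in r_DMSO and 9.96 to 11.8% in s_DMSO, and *Itgb2* 35.9 to 43.0% and 20.9 to 24.2%. *Itgb3* stayed between 3.13 and 6.91% in all libraries. These shares are set by the other chains as well and describe the make-up of the RNA, not the receptors on the surface.

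Among the α chains *Itgal* took the largest share in every library, from 44.1% in an s_BTK_inh to 78.7% in an r_BTK_inh library. *Itgae* made up 9.38 to 24.2% in s_DMSO, 15.3 to 28.9% in s_BTK_inh and 0.819 to 5.77% in r_BTK_inh, but at most 0.973% in r_DMSO. *Itgav* took 12.4 to 16.2% in r_DMSO, 8.36 to 10.6% in r_BTK_inh and 3.67 to 6.46% in the single peptide groups.

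**Figure D4:**
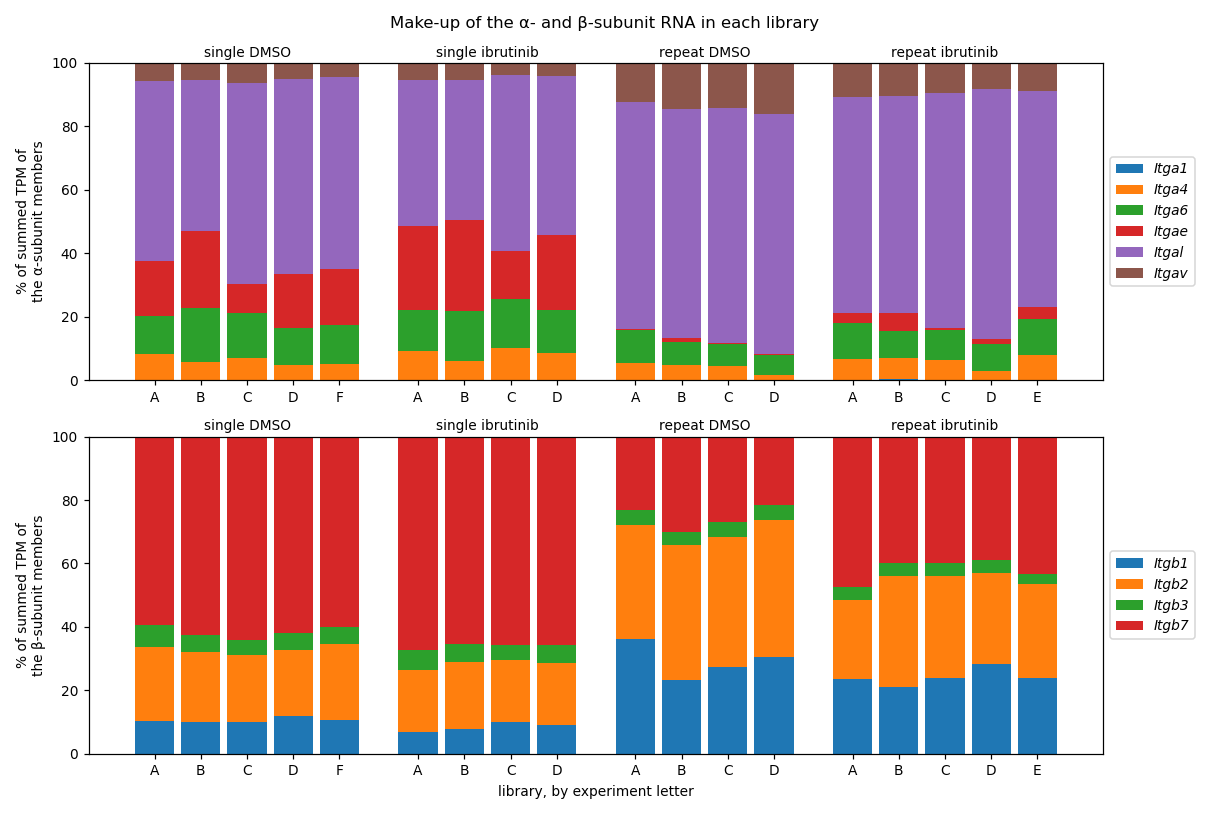
Share in percent of the summed TPM of the 6 α chains (top) and 4 β chains (bottom) for each library, grouped by condition and named by experiment letter. *Itgb7* fills 59.6% or more of the β chain bars in single peptide libraries and 30.2% or less in repeat peptide libraries with DMSO, and the *Itgae* band is thin in all repeat peptide libraries.

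TPM ratios are given for some pairs of partner chains, and for *Itgb1* and *Itgb7*, which are both β chains. *Itgal* per *Itgb2* was 0.687 to 0.891 in r_DMSO, 0.600 to 0.912 in r_BTK_inh, 0.629 to 0.913 in s_DMSO and 0.665 to 0.823 in s_BTK_inh, with all ranges overlapping. *Itgae* per *Itgb7* was 0.00109 to 0.0131 in r_DMSO and 0.0365 to 0.112 in s_DMSO, so that the α chain differed more than its partner. *Itgav* per *Itgb3* was 1.17 to 1.53 in r_DMSO, 0.650 to 1.04 in r_BTK_inh, 0.273 to 0.341 in s_DMSO and 0.208 to 0.307 in s_BTK_inh. The repeat peptide ranges did not overlap each other or the single peptide ranges, and between repeat and single peptide these 2 chains moved in opposite directions. *Itgb1* per *Itgb7* was 0.769 to 1.56 in r_DMSO, 0.496 to 0.725 in r_BTK_inh, 0.157 to 0.192 in s_DMSO and 0.102 to 0.154 in s_BTK_inh.

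Of 16 other integrin subunit genes, 10 were tested, and only *Itga3*, the α chain of a laminin receptor, was called in any of the comparisons, so 1 of 10 stands beside the 47.0% and 38.4% of all tested genes called between repeat and single peptide. It was higher with repeat peptide, with a log2 fold change of 2.18 (SE 0.281, adjusted p = 4.75e-06) with DMSO and 1.52 (SE 0.285, adjusted p = 0.000333) with ibrutinib. Its mean normalised read counts were 384 ± 110 in r_DMSO, 331 ± 77.5 in r_BTK_inh, 84.6 ± 36.8 in s_DMSO and 115 ± 17.9 in s_BTK_inh (SD). With DMSO, 5 others had an adjusted p under 0.05 but a mean count under the minimum: *Itga2* (-3.13), *Itga2b* (-1.70) and *Itgam* (-1.82) on the lower side, and *Itgb4* (5.51) and *Itgb5* (3.47) on the higher, all named after their values were seen. The unadjusted p was under 0.05 for 7 of the 10 with DMSO and 4 with ibrutinib in both arms. For ibrutinib none of these 10 genes was called by edgeR, DESeq2 or limma, and an unadjusted p under 0.05 was found for 3 with repeat peptide and 0 with single peptide.

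The 18 tested genes of integrin activation include inhibitors (*Sharpin*, *Itgb1bp1*, *Sipa1*, *Rap1gap* and *Dok1*), so their counts give no direction of activation. With repeat peptide and DMSO 1 was higher and 9 were lower, *Sharpin* among the lower. With ibrutinib in both arms 2 were higher, *Dok1* among them, and 7 lower, again with *Sharpin* (2 and 9 with the experiment as a block in each comparison). Of all tested genes 22.8% were higher and 24.2% lower in the former comparison, and 18.7% and 19.6% in the latter. By limma on log2(TPM + 1) 5 of the 18 were called with DMSO and 4 with ibrutinib in both arms. The median log2 fold change of the list with DMSO was -0.24, and -0.002 over all tested genes. *Rasgrp2*, the exchange factor that loads Rap1 with GTP, was 4.42-fold lower with DMSO (log2 fold change -2.15, SE 0.183, adjusted p = 3.48e-08) and *Tln2*, a talin, 5.01-fold higher (2.32, SE 0.376, adjusted p = 5.09e-05). In repeat peptide stimulated cells ibrutinib raised 3 of the 18 and lowered 0, beside 4.01% and 1.92% of all tested genes. The block gave 4 and 0, and limma called 1. *Rasgrp2* rose from 2649 ± 875 (SD, n = 4) to 5497 ± 1081 (SD, n = 5) normalised reads (1.05, SE 0.176, adjusted p = 0.00135), beside 11718 ± 1228 in s_DMSO. *Fyb* (0.44, adjusted p = 0.013) and *Cyth1* (0.50, adjusted p = 0.00189), chosen for mention after their values were seen, are an adaptor and a cytohesin that act on LFA-1. In single peptide stimulated cells edgeR and DESeq2 called 0 of the 18, 1 had an unadjusted p under 0.05, and with the block 1 was called. The ibrutinib effect on *Rasgrp2* differed between repeat and single peptide by 1.04 (SE 0.245, adjusted p = 0.0419), whereas limma called 0 of the 18 for this difference.

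Of 19 tested genes of the adhesion complex that links integrins to actin, 4 were higher and 8 lower with repeat peptide and DMSO. Of all tested genes 22.8% were higher and 24.2% lower in this comparison. *Vcl* (vinculin) was 4.71-fold higher (log2 fold change 2.24, SE 0.248, adjusted p = 8.4e-07), and ibrutinib lowered it in repeat peptide stimulated cells, from 1140 ± 341 to 396 ± 140 normalised reads (-1.52, SE 0.243, adjusted p = 0.00092). *Parvb* (parvin β), an ILK partner, had a mean of 0.247 normalised reads in r_DMSO, 29.5 ± 15.1 in r_BTK_inh, 75.4 ± 22.1 in s_DMSO and 97.9 ± 16.4 in s_BTK_inh, and no fold is given against counts near 0. In repeat peptide stimulated cells 3 genes were called higher with ibrutinib (*Parvb*, *Actn1* at 1.25 and *Flna* at 0.53) and 1 lower (*Vcl*), where *Actn1* and *Flna* are actin crosslinkers named after their values were seen. These 4 of 19 stand beside 5.92% of all tested genes, and DESeq2 called 3, limma 2 and the fit with the block 5. With ibrutinib in both arms 3 were higher and 5 lower (4 and 6 with the block), beside 18.7% and 19.6% of all tested genes. *Actn1* was 7.67-fold lower there (-2.94, SE 0.237, adjusted p = 3.73e-08). In single peptide stimulated cells edgeR, DESeq2 and limma called 0 of the 19, and 0 had an unadjusted p under 0.05.

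Of 15 ligand genes 8 were tested. With DMSO, repeat peptide raised 2 and lowered 3, beside 22.8% and 24.2% of all tested genes. *Spp1* (osteopontin, a ligand of αv and α4 integrins) had 2706 ± 954 normalised reads in r_DMSO, 1811 ± 1169 in r_BTK_inh, 10.5 ± 12.9 in s_DMSO and 8.44 ± 6.07 in s_BTK_inh (log2 fold change with DMSO 8.03, SE 0.684, adjusted p = 3.39e-08). *Thbs1* (thrombospondin) had a mean of 0.996 in r_DMSO against 117 ± 46.0 in s_DMSO. With ibrutinib in both arms 2 were higher and 2 lower, beside 18.7% and 19.6% of all tested genes. Ibrutinib gave no edgeR call among the 8 in either arm, beside 5.92% of all tested genes with repeat peptide and 3.04% with single peptide. The unadjusted p was under 0.05 for 2 with repeat peptide and 1 with single peptide, and DESeq2 called 1 in each arm. The fit with the block called 1 higher with repeat peptide and 1 lower with single peptide.

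Membrane proteins that associate with integrins were tested for all 11 listed. With DMSO 4 were higher and 2 lower with repeat peptide, beside 22.8% and 24.2% of all tested genes. They were led by the tetraspanin *Cd81* (log2 fold change 5.64, SE 0.71, adjusted p = 3.66e-06) and by *Cd226* (-1.96, SE 0.29, adjusted p = 2.1e-05), a receptor that associates with LFA-1. In repeat peptide stimulated cells ibrutinib raised *Cd226* from 399 ± 236 to 992 ± 194 normalised reads (1.32, SE 0.285, adjusted p = 0.0087) and no other of the 11. Of all tested genes 4.01% were called higher and 1.92% lower. With the block, 2 of the 11 were higher and 4 lower, where the calls in all tested genes went from 726 to 1694. In single peptide stimulated cells ibrutinib raised the tetraspanin *Tspan32* (0.89, SE 0.219, adjusted p = 0.0307), beside 0.351% of all tested genes called higher and 2.69% lower. With the block 4 of the 11 were higher, where the calls in all tested genes went from 373 to 1114, but limma called 0 of the 11. With ibrutinib in both arms 2 were higher and 1 lower (*Cd81* at 2.92 and *Cd226* at -1.04), beside 18.7% and 19.6% of all tested genes. With the block 3 were higher and 3 lower.

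Genes of tissue residency and egress, among which CD103 is often counted, were tested for 13 of 14. With DMSO 6 were higher and 4 lower with repeat peptide, led by the chemokine *Xcl1* (2.72, SE 0.472, adjusted p = 0.000103) and by *S1pr1* (-3.83, SE 0.255, adjusted p = 1.82e-09), the receptor for egress from lymphoid tissue. Of all tested genes 22.8% were higher and 24.2% lower. With the block 7 of the 13 were higher and 5 lower. With ibrutinib in both arms the counts were again 6 and 4 (7 and 4 with the block), beside 18.7% and 19.6% of all tested genes. *Xcl1* was at 6.46 and *S1pr1* at -2.20. In repeat peptide stimulated cells ibrutinib raised 3, among them *S1pr1* and *Klf2*, and lowered *Prdm1*, the gene of Blimp-1 (-1.50, SE 0.347, adjusted p = 0.013). Of all tested genes 4.01% were called higher and 1.92% lower. With the block 4 of the 13 were higher and 2 lower. *S1pr1* went from 768 ± 333 to 3222 ± 891 normalised reads (2.07, SE 0.235, adjusted p = 4.86e-05), beside 10934 ± 796 in s_DMSO. In single peptide stimulated cells ibrutinib lowered *Xcl1* (-2.96, SE 0.549, adjusted p = 0.00677) and *Zfp683*, the gene of Hobit (-1.67, SE 0.35, adjusted p = 0.0126). Of all tested genes 0.351% were called higher and 2.69% lower. With the block 1 gene of the 13 was higher and 3 were lower. The ibrutinib effects differed between repeat and single peptide for *Xcl1* (3.74, SE 0.714, adjusted p = 0.0101) and *S1pr1* (1.63, SE 0.316, adjusted p = 0.011), beside 1.26% of all tested genes. With the block 5 of the 13 were called for this difference, where the calls in all tested genes went from 154 to 679. *Klf2* and *Zfp683* are named after their values were seen.

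The genes most alike to each integrin were ranked by Pearson's r of log2 CPM over the 18 libraries, as a description, since all genes share the libraries and groups. *Itgae* was most like *Bach1* (r = 0.987), *Rasgrp2* (0.986) and *Acpp* (0.981). *Itgb7* was most like *S1pr1* (0.982), *Sh3bp5* (0.98) and *Rasa3* (0.979). For *Itgav* they were *Cblb* (0.979), *Nsmaf* (0.968) and *Cers6* (0.967), and for *Itgb2* they were *Nfkb1* (0.974), *Lrrk1* (0.957) and *Sh3bp2* (0.948). For *Itgb3* they were *Prdm2* (0.967), *Rev3l* (0.963) and *Tanc1* (0.963). *Itga6* was most like *Dock11* (0.962), *Foxp1* (0.953) and *Slc35c1* (0.95), and *Itgb1* was most like *Klc3* (0.95), *Anxa4* (0.949) and *Ier5l* (0.948). The likeness was weaker for *Itgal* (*Usp49* 0.92, *Lpgat1* 0.908, *Ccdc14* 0.902), *Itga4* (*Efr3a* 0.873, *Phtf1* 0.871, *Snx33* 0.866) and *Itga1* (*Srxn1* 0.86, *Plscr4* 0.857, *Nvl* 0.843).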

How the data were processed

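RNA-seq was read from 1 table per library. The authors trimmed reads with Trim Galore, aligned and quantified them by RSEM 1.3.1 (with STAR) on GRCm38 and Ensembl genes, and deposited expected counts, TPM and effective lengths per gene. Expected counts are the authors' estimated counts, which need not be whole. TPM values were scaled by the authors per length and to the same total per library. The kit was directional and selected poly-A RNA. Whether strand was used in the counting is not given in the sources used here.

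Here expected counts were rounded, and genes were matched to GENCODE M21 by identifier (45143 of 45706), keeping 27903 protein-coding or lncRNA genes that held 98.5% of the counts. The 12255 genes that passed filterByExpr were fitted in edgeR 4.0.16 (R 4.3.3) with TMM, glmQLFit (robust) and glmQLFTest, with all 4 groups in 1 fit, and p-values were adjusted by Benjamini-Hochberg over all of them. Normalised read counts are TMM-scaled CPM, brought back to counts by the mean TMM-scaled library size. The steps were tested on data simulated without an experiment effect, with changes in well-counted genes, for ibrutinib in repeat peptide cells. That test does not cover paired libraries, genes with low counts or the difference of the ibrutinib effects. Intervals of the fold changes are 95% t intervals from the fit. TPM served for levels between genes, for shares and for a limma 3.58.1 alternative (pseudocount 1), and effective lengths for an offset. Other alternatives were DESeq2 1.42.0 (test and size factors), no filter, all gene types, no mean count minimum, a log2 threshold of 1, only the compared groups, the experiment as a block, and each library left out. Without separate molecule tags, depth covers counting error only.

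The experiment, taken from the genotype entry of the labels, paired the libraries: deviations from group means correlated at 0.16 to 0.494 (median 0.325) in all 24 pairs of libraries from 1 experiment in different groups, and at a median of -0.076 (-0.44 to 0.404) in the other 97. The study's methods name no block, so the fit without it was kept, and blocked values stand beside the integrin calls they change and beside list counts.

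All 10 members are named, with, per list and comparison, the called gene of largest fold change in each direction and the 3 most correlated genes of each member (log2 CPM, prior count 2). Members and lists were chosen with earlier results of these data known. A gene of the residency list is counted but not reported here by name.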

Additional observations from a re-analysis of the deposited data

Results flagged for a closer look

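In a search of 40 combinations of integrin gene and group for a library far from the others of its group (Dixon's criterion), 3 were found, and chance alone gives about 1 in 20. *Itgal* was lowest in the r_BTK_inh library of experiment E, with 14110 normalised reads against 20527 to 22822 in the other 4. *Itgb7* was highest in the r_BTK_inh library of experiment A, with 24356 normalised reads against 16672 to 18336 in the other 4. *Itgb7* was lowest in the s_BTK_inh library of experiment D, with 30448 against 33016 to 33260 in the other 3. The ibrutinib effect on *Itgb7* differed between repeat and single peptide stimulated cells by 1.05 on the log2 scale (edgeR adjusted p = 0.00626).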

How the results depend on the processing

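Over 50 fold changes (10 genes in 5 comparisons) and their alternatives, 997 of 1029 values kept direction and call, 13 lost the call, 8 gained it and 11 changed sign. The experiment as a replicate block gave 5 integrins called for ibrutinib in repeat peptide cells instead of 2, and 2 instead of 1 for the difference of the ibrutinib effects. For repeat against single peptide it gave 9 instead of 7 with DMSO. The block raised the calls in all tested genes as well. They went from 726 to 1694 for ibrutinib in repeat peptide cells, from 154 to 679 for the difference and from 5765 to 6564 for repeat against single peptide with DMSO. The block changed no call of integrins for ibrutinib in single peptide cells (373 to 1114 in all tested genes) or for repeat against single peptide with ibrutinib (4703 to 5950). An absolute log2 fold change above 1 left 3 integrins between repeat and single peptide in either drug arm, by construction. By limma on log2(TPM + 1) the difference of the ibrutinib effects had 0 integrins called, and the cause was not tested. With each library left out in turn, the number of integrins called for that difference was 1 to 2, and the other counts were the same. Sign changes were in values near 0: *Itgal* for ibrutinib in repeat peptide cells (-0.12 by limma, -0.02 to 0.12 with a library left out), *Itgb2* there (-0.07 to 0.0014), *Itgb3* for ibrutinib in single peptide cells (-0.07 by limma, -0.06 to 0.08) and *Itga4* for the difference (-0.11 to 0.35). *Itga1* without the mean count minimum was called for repeat against single peptide with ibrutinib (edgeR adjusted p = 0.00239), with 0 to 4 expected counts in s_BTK_inh. *Itga1* had at most 88 expected counts in any library, and *Itgae* (SE 0.661) and *Itga4* (SE 0.333) had errors above those of the 7 remaining genes (at most 0.187) for ibrutinib in repeat peptide cells.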
